A study of Rattus norvegicus with 28 samples.

Results

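Ddit3 (ENSRNOG00000006789) and Hspa5 (ENSRNOG00000018294), 2 genes of the response to endoplasmic reticulum (ER) stress, were followed through 28 brain libraries from male Sprague-Dawley rats. They are 2 of the 15635 genes in the deposited table, and their rows were taken by Ensembl identifier. Ddit3 was selected on its measured counts, being lower with the H3.3Q5A virus than with the H3.3WT virus in nucleus accumbens (NAc), so that difference is given here as a description and was not tested. Hspa5 was read beside it. All animals were young adults that had taken cocaine by extended-access self-administration for 10 days, then received a lentivirus (pCDH backbone) in either the NAc or the medial prefrontal cortex (mPFC). The virus added a copy of the histone variant H3.3, either unmutated (H3.3WT) or with alanine in place of the glutamine that accepts dopamine (H3.3Q5A). Tissue was compared after 30 days of expression and abstinence and a test of cue-induced seeking. The 4 groups of region and virus held 7 libraries each. Every group thus shared cocaine exposure, surgery and an added H3.3 gene; animals without virus or without cocaine were not analysed here. The labels do not name the promoter that drives the transgene, and the tissue was bulk, so cells without virus contributed to every value. Where a level differs in bulk tissue, fewer cells of a type and less RNA per cell cannot be told apart.

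Hspa5 encodes BiP (GRP78), the Hsp70-type chaperone of the ER lumen. It binds unfolded chains, and it also holds the stress sensors PERK, IRE1 and ATF6 inactive until unfolded protein draws it away. Its own gene is a classic target of the unfolded protein response, through ATF6 and XBP1. Ddit3 encodes CHOP (GADD153), a transcription factor of the C/EBP family that lies downstream of PERK, eIF2α and ATF4 and is known for promoting cell death when stress persists. In brain, Hspa5 is expressed by neurons and glia as part of normal secretory folding, while Ddit3 is usually kept low and rises with stress.

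The sequences just upstream of both genes are shown because they carry the ER stress response element (ERSE) known in both genes. The element is CCAAT, then any 9 bases, then CCACG; its left part is bound by NF-Y and its right part by ATF6. The 250 bases before each RefSeq start site were searched on both strands, with the element in capitals. The coordinates are those of RefSeq on GRCr8, plus strand, chr7:65001445-65001694 for Ddit3 and chr3:38452766-38453015 for Hspa5, and not those of the rn6 build named for the counts.
Ddit3: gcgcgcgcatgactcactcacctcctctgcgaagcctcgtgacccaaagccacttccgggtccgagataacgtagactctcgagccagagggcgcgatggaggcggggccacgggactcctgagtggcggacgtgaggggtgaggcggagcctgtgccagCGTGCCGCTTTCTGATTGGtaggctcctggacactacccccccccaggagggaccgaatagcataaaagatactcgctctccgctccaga
Hspa5: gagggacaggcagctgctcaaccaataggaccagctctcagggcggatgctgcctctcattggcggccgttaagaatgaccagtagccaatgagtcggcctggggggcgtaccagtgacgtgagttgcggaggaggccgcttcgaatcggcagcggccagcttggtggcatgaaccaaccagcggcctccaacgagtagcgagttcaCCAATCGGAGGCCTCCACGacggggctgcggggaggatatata
Hspa5 held an exact match, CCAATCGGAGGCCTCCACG, from 43 to 25 bases before its start. Ddit3 held a match with 1 mismatch on the opposite strand, from 90 to 72 bases before its start. Read on that strand it is CCAATCAGAAAGCGGCACG, with the substitution C15G, counted from 1 at the 5′ end of the element. An exact element stood in 0.0657% of 33465 upstream windows of the same length, and one with up to 1 mismatch in 1.27%. The letters CCAAT, which are part of the element and were also counted by themselves, occurred 4 times in the Hspa5 window, counting both strands, and in 34% of all windows. TGACGT, the core of a cyclic AMP response element, occurred once in the Hspa5 window and in 6.95% of all windows. TGATGNAA, the C/EBP and ATF composite sequence through which ATF4 acts, occurred in 3.4% of all windows and in neither of these, which says only that these letters are not in these windows. A match in the sequence is a description and not a measured site.

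Total counts per library ran from 15448673 to 51714324. The raw counts behind the 2 genes were large: 303 to 1129 reads per library for Ddit3 and 7182 to 23207 for Hspa5. Counting error alone was therefore 2.98% to 5.74% of a single Ddit3 value and 0.656% to 1.18% of a single Hspa5 value. It does not include errors from amplification or from the animal. Levels are CPM, counts scaled to library size with TMM factors that correct for composition; they are not per length, so they are compared between libraries and not between the 2 genes. A few libraries stood apart. NAc H3.3Q5A replicate 3 had the lowest TMM factor, 0.856, and NAc H3.3WT replicate 17 the next lowest, 0.944, with the smallest total. Transcripts high in NAc were at 1.82 log2 CPM in mPFC H3.3Q5A replicate 34 and at 1.248 in mPFC H3.3WT replicate 11, while the other mPFC libraries were at 0.726 to 0.939. The 2 NAc libraries were set apart by TMM factor and not by transcripts high in mPFC, of which NAc H3.3WT replicate 12 had most (1.54 log2 CPM). They also held the lowest and the highest Ddit3 level in NAc. Values without the 4 libraries that stand apart are given beside the main virus and region results.

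In NAc, Ddit3 was lower with H3.3Q5A in every library. With H3.3WT the 7 libraries ran from 22.8 CPM (replicate 20) through a median of 24.3 to 30.2 CPM (replicate 17), with a mean of 25.1 ± 2.56 (SD, n = 7). With H3.3Q5A they ran from 17.7 CPM (replicate 3) through 19.1 to 20.4 CPM (replicate 28), with a mean of 19.2 ± 0.886. The groups did not overlap: the highest H3.3Q5A library lay below the lowest H3.3WT library. Such separation in this direction was seen for 0.118% of the 15315 genes tested in NAc, 18 genes in all, and since Ddit3 was picked for it nothing further is read from that share. The fitted log2 fold change was −0.39 (SE 0.07), a level 0.765 times that with H3.3WT. P1 and P2 are marks in the sample titles whose meaning is not given. Split by mark, the value was −0.41 in P1 and −0.38 in P2. Since the groups did not overlap, neither such a split nor leaving out libraries could be expected to turn the sign. Agreement in sign is therefore not read as support. Leaving out each NAc library in turn gave values from −0.41 to −0.33, the latter without H3.3WT replicate 17, the highest library, and leaving out both replicate 17 and H3.3Q5A replicate 3 gave −0.31.

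Genes typical of mPFC, taken as those at least 4 times higher there, had a mean of 0.78 ± 0.53 log2 CPM (SD, n = 7, range 0.0233 to 1.54) in the H3.3WT libraries of NAc. In the H3.3Q5A libraries of NAc the mean was 0.38 ± 0.35 (range 0.151 to 1.09). The mean of genes typical of NAc minus that of these genes was 3.02 ± 0.69 and 3.64 ± 0.52 in the same order. With H3.3Q5A the mean of the first measure was thus lower and that of the second higher. The libraries of the 2 viruses overlapped in both measures. The part of these measures in the Ddit3 difference was not tested.

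Hspa5 showed no such shift in NAc. With H3.3WT its levels ran from 384 CPM (replicate 20) through a median of 497 to 522 CPM (replicate 12), with a mean of 475 ± 48.2 (SD, n = 7). With H3.3Q5A they ran from 395 CPM (replicate 2) through 435 to 679 CPM (replicate 3), with a mean of 476 ± 98.5. The ranges overlapped almost completely apart from H3.3Q5A replicate 3, which was higher than any other of the 28 libraries. The fitted log2 fold change was −0.00023 (SE 0.10), and the 95% interval of the ratio ran from 0.859 to 1.16 (edgeR adjusted p = 0.999). An exact two-sided permutation test of log2 CPM over the 3432 divisions of the 14 libraries gave p = 0.919. Without H3.3Q5A replicate 3 the log2 fold change was −0.09, and without both NAc libraries that stand apart it was −0.06, not called in either case. In this comparison edgeR called 0% of all genes at an adjusted p under 0.05 (1200 had an unadjusted p under 0.05), DESeq2 called 9 and limma voom, weighting samples by quality, called 4.

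**Figure D1:**
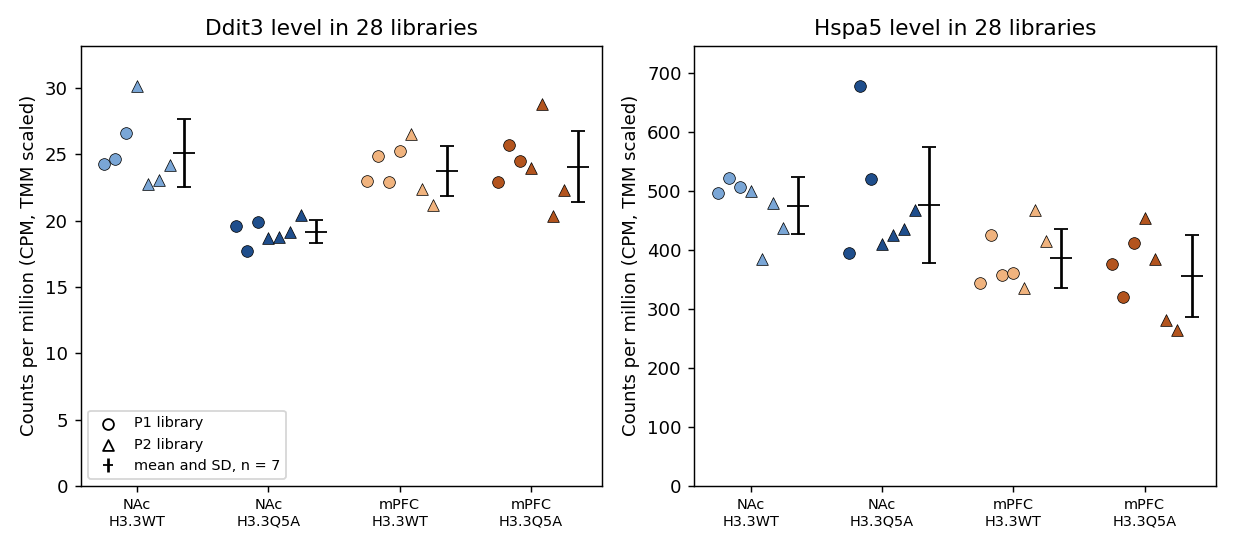
Level of Ddit3 (left) and Hspa5 (right) in CPM, from 0, for every library of the 4 groups of region and virus; circles are P1 and triangles P2 libraries, and the bars give mean and SD of 7 libraries. The 7 Ddit3 values of NAc with H3.3Q5A, 17.7 to 20.4 CPM, lie under all values of NAc with H3.3WT, while the Hspa5 values of these groups overlap.

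In mPFC neither gene differed detectably between the viruses. Ddit3 with H3.3WT ran from 21.2 CPM (replicate 36) through a median of 23.002 to 26.5 CPM (replicate 21), with a mean of 23.7 ± 1.88 (SD, n = 7). With H3.3Q5A it ran from 20.3 CPM (replicate 34) through 24.0 to 28.8 CPM (replicate 15), with a mean of 24.1 ± 2.71. The H3.3WT values lay wholly within the range of the H3.3Q5A values. The log2 fold change was 0.03 (SE 0.08), with a 95% interval of the ratio from 0.915 to 1.14 (edgeR adjusted p = 0.896; exact permutation p = 0.822). Without H3.3Q5A replicate 15 it was −0.013, and without the 2 mPFC libraries that stand apart it was 0.05 (0.06 without replicate 34 alone), and it was called in none of these.

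Hspa5 in mPFC ran from 335 CPM (replicate 21) through 360.4 to 468 CPM (replicate 35) with H3.3WT, a mean of 386 ± 49.9 (SD, n = 7). With H3.3Q5A it ran from 264 CPM (replicate 37) through 376 to 454 CPM (replicate 14), a mean of 356 ± 69.98. The lowest 3 libraries carried H3.3Q5A (replicates 37, 34 and 4), but the rest of that group lay among the H3.3WT libraries. The log2 fold change was −0.11 (SE 0.12), with an interval of the ratio from 0.771 to 1.11 (edgeR adjusted p = 0.764; exact permutation p = 0.324). Within the P1 libraries it was −0.0037 and within the P2 libraries −0.22, and without replicates 34 and 11, the libraries with more NAc transcripts, it was −0.08. edgeR called 0% of genes here too (1221 had an unadjusted p under 0.05), DESeq2 called 8 and limma voom 0.

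The virus effects in the regions were set against each other, the contrast that the title of the study names. For Hspa5 the NAc effect minus the mPFC effect was 0.11 on the log2 scale (SE 0.17), with a 95% interval from −0.24 to 0.45 (edgeR adjusted p = 0.95). It was 0.0065 without the 4 libraries that stand apart, and 0.012 without NAc H3.3Q5A replicate 3 alone. For Ddit3 the same quantity was −0.41 (SE 0.10); it contains the contrast by which the gene was picked and was not tested. It was −0.42 within P1 and −0.42 within P2. Without the 4 libraries that stand apart it was −0.36, as it was without NAc H3.3WT replicate 17 alone. Each of these values holds the NAc contrast that picked the gene, so their agreement is not separate support. For this contrast edgeR called 0% of 15635 genes (822 had an unadjusted p under 0.05), DESeq2 called 0 and limma voom 9.

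Between the regions the chaperone gene was higher in NAc. Hspa5 ran from 384 to 679 CPM in the 14 NAc libraries and from 264 to 468 CPM in the 14 mPFC libraries. The ranges overlapped, but 7 NAc libraries lay above every mPFC library and 8 mPFC libraries lay below every NAc library. Averaged over both viruses the log2 fold change of NAc over mPFC was 0.36 (SE 0.08), a ratio of 1.29 with a 95% interval from 1.14 to 1.45 (edgeR adjusted p = 0.000498). The regions differ in most genes: 67.4% of all genes were called, 33.5% of all as higher in NAc and 33.9% as lower, and 42.9% had a larger difference than Hspa5. The call for Hspa5 is therefore one of a majority. With H3.3WT alone the log2 fold change was 0.31 (SE 0.12, edgeR adjusted p = 0.0317, where 53.3% of genes were called) and with H3.3Q5A alone 0.42 (SE 0.12, edgeR adjusted p = 0.00448, where 55.4% were called). It was 0.49 among P1 libraries (edgeR adjusted p = 0.00322) and 0.24 among P2 libraries, where it was not called (edgeR adjusted p = 0.103). Without the 4 libraries that stand apart it was 0.27 (edgeR adjusted p = 0.00481).

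Averaged over both viruses, Ddit3 went the other way by a small amount, on libraries that include those by which it was picked. The 14 NAc libraries ran from 17.7 to 30.2 CPM and the 14 mPFC libraries from 20.3 to 28.8 CPM. The 6 NAc libraries below every mPFC library all carried H3.3Q5A, the group with the low counts by which Ddit3 was picked. Over both viruses the log2 fold change of NAc over mPFC was −0.12 (SE 0.05), a ratio of 0.918 with an interval from 0.854 to 0.986 (edgeR adjusted p = 0.0324). In this comparison 67.4% of all genes were called, and 76.1% had a larger difference than Ddit3. The 2 viruses contributed unequally to the mean over both: the difference was 0.08 under H3.3WT but −0.33 under H3.3Q5A. The latter 2 values share libraries with the contrast that picked the gene and are given without a test. The mean over both viruses, with equal weight on each, uses those libraries too. Its negative sign came from H3.3Q5A, the group whose low counts picked the gene. The mean is thus not a region difference seen under both viruses, and its p-values are not read as evidence of one. The call over both viruses ended on leaving out any 1 of 6 libraries. Without NAc H3.3WT replicate 8, 20 or 21 the edgeR adjusted p was 0.0506, 0.0534 and 0.0507. Without NAc H3.3Q5A replicate 3 it was 0.0584, and without mPFC H3.3WT replicate 21 or mPFC H3.3Q5A replicate 15 it was 0.0653 and 0.0711. It also ended among P2 libraries (log2 fold change −0.11, edgeR adjusted p = 0.337), where P1 libraries gave −0.15 (edgeR adjusted p = 0.0363). Other fits gave a larger difference: −0.16 without the 4 libraries that stand apart (edgeR adjusted p = 0.00278), −0.15 without NAc H3.3WT replicate 17 alone (edgeR adjusted p = 0.00531), −0.14 without mPFC H3.3Q5A replicate 34 alone (edgeR adjusted p = 0.0125) and −0.14 by limma voom with quality weights (adjusted p = 0.0011).

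In order of mean level, Ddit3 was lowest in NAc with H3.3Q5A (19.2 CPM), then mPFC with H3.3WT (23.7), mPFC with H3.3Q5A (24.1) and NAc with H3.3WT (25.1). The last 3 lay within each other's SD. Hspa5 was lowest in mPFC with H3.3Q5A (356 CPM) and mPFC with H3.3WT (386), which lay within each other's SD, followed by NAc with H3.3WT (475) and NAc with H3.3Q5A (476). The 2 NAc groups, which stood at opposite ends of the Ddit3 order, were level for Hspa5.

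**Figure D2:**
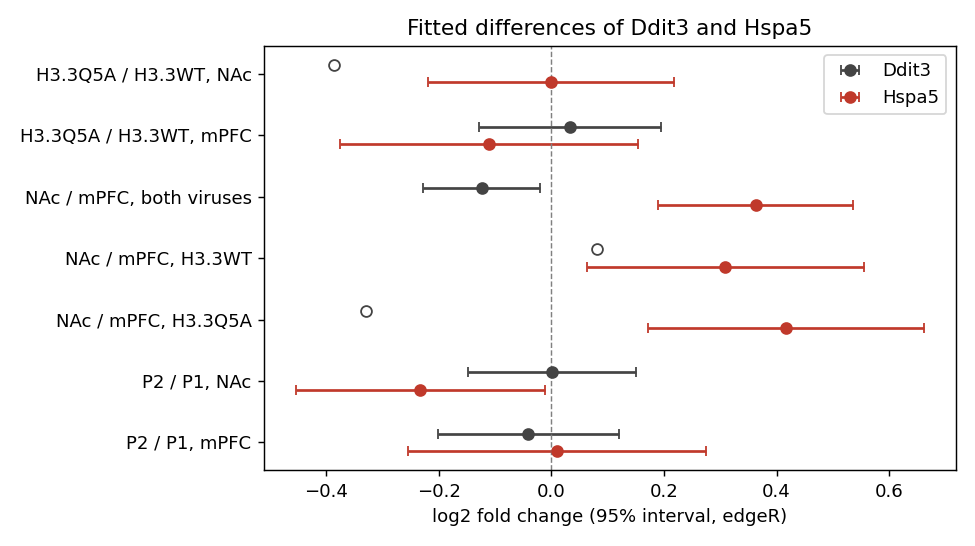
Fitted log2 fold changes of Ddit3 (dark) and Hspa5 (red) for the virus within each region, the region, and the P mark; filled points carry 95% intervals from edgeR, and open points are contrasts that picked Ddit3 or share libraries with it, drawn without interval. Hspa5 is to the right of 0 in each comparison of NAc with mPFC, while its virus effects lie at −0.00023 and −0.11. The filled Ddit3 points for the region over both viruses and for the P mark in NAc also rest on libraries by which the gene was picked.

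The 2 genes differed in how much they varied between libraries of a group. Pooled over the 4 groups, the SD of log2 CPM was 0.125 for Ddit3 and 0.232 for Hspa5, where the median gene had 0.222. A smaller SD was seen in 17.6% of all genes for Ddit3 and in 52.5% for Hspa5. Among genes within 0.5 of the same mean level on the log2 scale, these shares were 21.8% of 2455 genes and 67.0% of 373 genes. In NAc with H3.3Q5A the Ddit3 SD, 4.62% of the mean, was 0.977 times that expected from counting alone (4.73%). In the other groups it was 2.03 to 3.32 times the counting error, at 7.9% to 11.2% of the mean. Hspa5 varied by 10.1% to 20.7% of the mean, 10.98 to 22.3 times its counting error, so depth did not limit its precision. Whether the groups differ in spread was not tested.

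The P mark was examined for both genes, since it is the only label that resembles a batch. In NAc, Hspa5 was at 508 ± 12.4 CPM (SD, n = 3) in P1 and 451 ± 51.3 CPM (n = 4) in P2 libraries with H3.3WT. With H3.3Q5A it was at 532 ± 142 and 435 ± 24.4 CPM. The log2 fold change of P2 over P1 was −0.23 (SE 0.10), with an unadjusted p of 0.0412 that did not hold after adjustment over all genes (edgeR adjusted p = 0.999, 0% of genes called, 681 at an unadjusted p under 0.05). In mPFC the Hspa5 difference was 0.01 (SE 0.12, edgeR adjusted p = 0.99), with 0% of genes called and 953 at an unadjusted p under 0.05. Ddit3 differed between the marks by 0.0014 (SE 0.07) in NAc and by −0.04 (SE 0.08) in mPFC, and neither was called.

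The number of Hspa5 reads for each Ddit3 read needs no scaling between libraries, so it was also compared. It is not corrected for gene length. In NAc it ran from 16.6 to 21.1 with H3.3WT, a mean of 19.003 ± 1.90 (SD, n = 7), and from 20.2 to 38.3 with H3.3Q5A, a mean of 24.99 ± 6.13. In all, 6 of the H3.3Q5A libraries, each except replicate 2, lay above every H3.3WT library. The 4 P2 libraries with H3.3Q5A were close together, at 22.6 ± 0.439, and the 4 P2 libraries with H3.3WT were at 18.1 ± 1.96. Because its denominator is the Ddit3 count by which the gene was picked, the NAc ratio holds that difference again. It is not separate evidence of a virus effect and was not tested between the viruses. In mPFC the H3.3WT libraries had 16.4 ± 2.96 and the H3.3Q5A libraries 14.8 ± 2.61, a log2 difference of −0.15 (exact two-sided permutation p = 0.285).

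**Figure D3:**
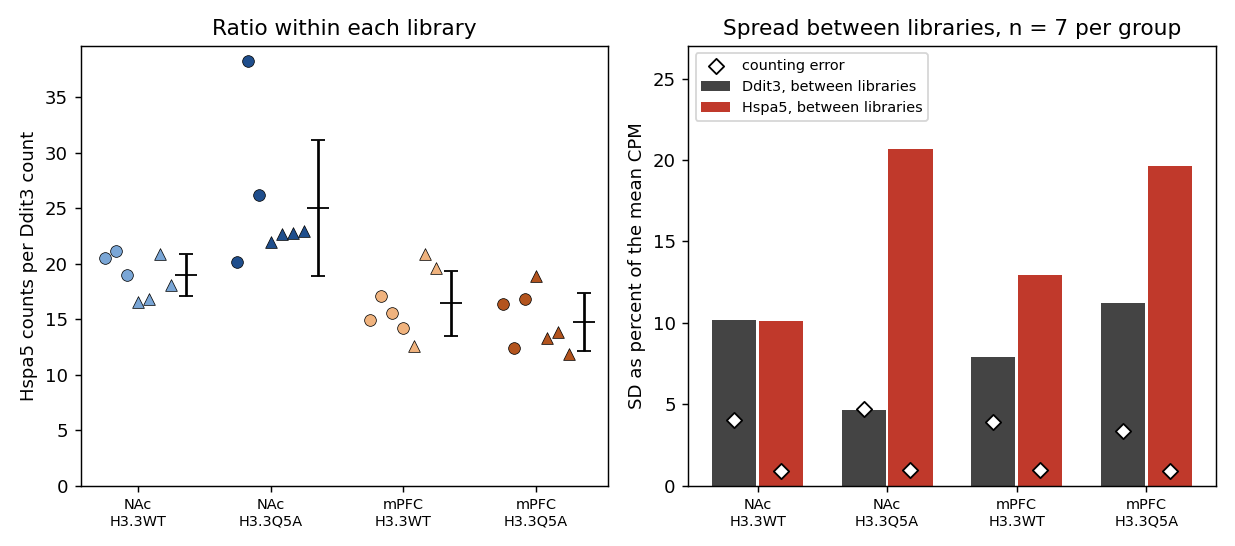
Left, Hspa5 counts per Ddit3 count in each library (circles P1, triangles P2; bars are mean and SD of 7 libraries); NAc H3.3Q5A replicate 3 is highest at 38.3. Right, SD between libraries as percent of the mean CPM for both genes, with diamonds for the SD that counting alone would give; the Ddit3 bar of NAc H3.3Q5A, 4.62%, is level with its diamond.

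Over the 14 libraries of a region, no relation between Ddit3 and Hspa5 passed the test. The regions form separate clusters, so the relation was computed within each. In NAc Pearson's r of log2 CPM was 0.0591 and Spearman's rho was 0.323. These NAc values pool the viruses, between which Ddit3 was selected to differ, so they are given without a test. In mPFC r was 0.176 (permutation p = 0.548, adjusted p = 0.844 over the 2 regions) and rho 0.0593 (permutation p = 0.846, adjusted p = 0.846). As deviations from the mean of the same virus and P mark, r was 0.082 and rho 0.275 in NAc (permutation p = 0.76 and 0.342, adjusted p = 0.76 and 0.512). In mPFC r was 0.216 and rho 0.191 (permutation p = 0.459 and 0.512, adjusted p = 0.76 and 0.512). The NAc value depended on few libraries. Without the 2 farthest from the median of Hspa5, H3.3Q5A replicate 3 and H3.3WT replicate 20, r was 0.635 and rho 0.748. These values are from levels with the viruses pooled, so they hold the difference by which Ddit3 was picked and are given without a test. Deviations from the mean of the same virus and P mark were not compared without these 2 libraries. In mPFC the same step removed H3.3Q5A replicates 37 and 34 and turned r to −0.348 (permutation p = 0.271, adjusted p = 0.271). NAc H3.3Q5A replicate 3 had both the lowest Ddit3 and the highest Hspa5 of the 14 NAc libraries.

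**Figure D4:**
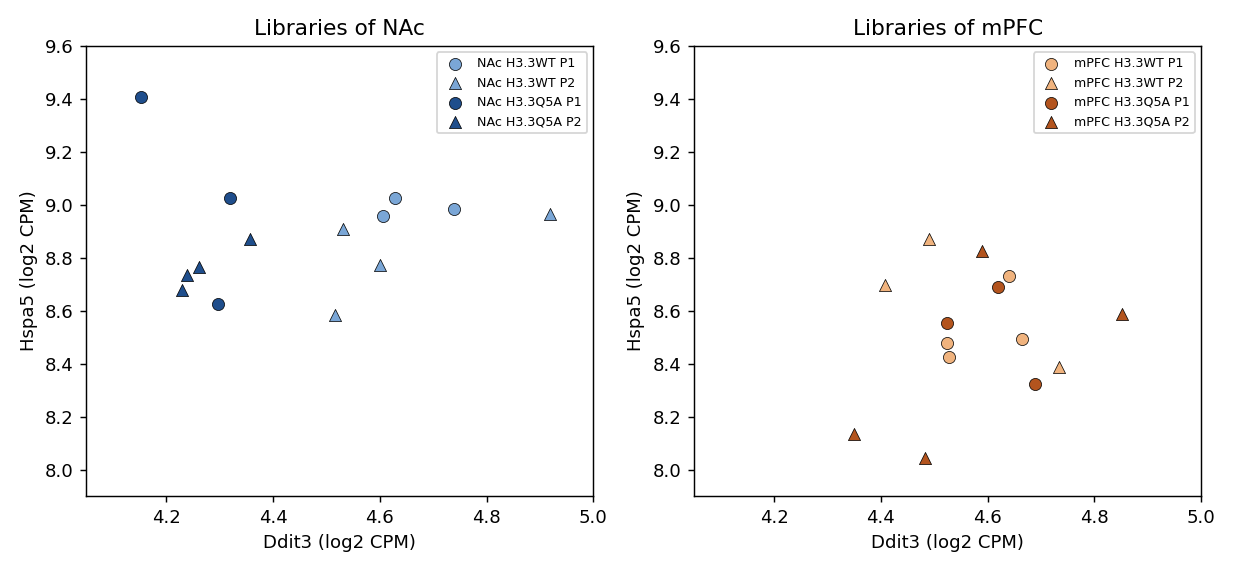
Hspa5 against Ddit3, both in log2 CPM, for the 14 NAc libraries (left) and the 14 mPFC libraries (right), on the same axes; colours give the virus, circles P1 and triangles P2. In NAc the H3.3Q5A libraries lie to the left, and replicate 3 stands above the rest at an Hspa5 level of 9.41.

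The genes whose deviations from the mean of the same region, virus and P mark followed each member most closely were found by Pearson's r over the 28 libraries, among 15634 other genes. For Ddit3 they were ENSRNOG00000008090 (r = 0.847) and ENSRNOG00000011827 (r = 0.821), and 92 genes had r over 0.7. In NAc, ENSRNOG00000008090 had 47.7 ± 4.92 CPM (SD, n = 7) under H3.3WT against 48.2 ± 1.95 CPM under H3.3Q5A, so it shared the small deviations of Ddit3 but not its group means. ENSRNOG00000011827 was at 13.9 ± 1.74 and 11.8 ± 1.20 CPM. For Hspa5 they were ENSRNOG00000003029 (r = 0.844) and ENSRNOG00000010944 (r = 0.83), with 43 genes over 0.7. Neither member was near the top of the other's list: Hspa5 ranked 5453 for Ddit3 and Ddit3 ranked 3701 for Hspa5, with r = 0.164. The deposited table gives no symbols, so these 4 genes are not named.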

How the data were processed

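Polyadenylated RNA was sequenced from libraries made with the TruSeq RNA V2 kit, per the labels' protocols. HISAT2 2.1.0, featureCounts 2.0.1, DESeq2 1.6.3 and build rn6 are named in the submitters' processing notes, without their roles. The deposited table holds whole-number read counts for Ensembl genes, 1 column per library, not normalized by the authors. Each of the 15635 genes reached 10 counts in at least 14 libraries, so low genes had been removed before deposit.

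Groups came from sample titles. Virus effects were fitted on the 14 libraries of a region, and the region and interaction contrasts on all 28, with edgeR 4.0.16 in R 4.3.3 (quasi-likelihood F test, TMM, filterByExpr, P mark as an additive term). P-values were adjusted by Benjamini-Hochberg over all genes tested and calls made under 0.05. SE is the log2 fold change divided by the square root of F. Log2 CPM used a prior count of 2. Alternatives were DESeq2 1.42.0, limma 3.58.1 voom, DESeq2 size factors, no filter, no P term, each P mark alone and each library left out; leaving out 4 libraries together, and voom without weights or block, were added after seeing the data. Counts were also simulated for the NAc virus comparison (15315 genes). In them 50 genes each were changed 1.25-fold, 1.5-fold, 2-fold and 4-fold. There edgeR recovered 18%, 52%, 88% and 96% of these in the same order, with 4 false calls. The rates hold for that number of changed genes and were not measured for fewer. Correlations used 100000 permutations.

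The 2 genes, the lists and the tests were chosen with earlier results of these data known. The rule for named genes was Ddit3, Hspa5, list members and the 2 closest genes to each. Lists of stress-pathway and cell type genes had been written as symbols; 0 of the table's IDs are paired with a symbol in the RefSeq table at hand (GRCr8), so those lists, and the check of each tissue against markers, were not analysed here. Both genes matched the RefSeq promoter table by symbol. The kit does not record strand: on GRCr8 Ddit3 shares 62 bases with Mars1, and the RefSeq model LOC134479709 covers 3930 bases of it, so reads of these cannot be told apart where they overlap. Since the labels name no animals, p-values cover only library-to-library spread, which may be technical. No 2 libraries of a group agreed within sampling noise (smallest chi-square per degree of freedom 7.49).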

Additional observations from a re-analysis of the deposited data

Results flagged for a closer look

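The number of Hspa5 reads per Ddit3 read in NAc H3.3Q5A replicate 3, 38.3, lay far above the other libraries of its group, of which the next highest had 26.2. It was found by comparing gaps within a group, not between the viruses: the distance from its neighbour was measured for the highest and lowest library in each of 12 groups of values (Ddit3, Hspa5 and their ratio in 4 groups), and 1 was beyond Dixon's limit; chance gives about 1 in 20 groups. This library had the lowest Ddit3 level of all 28, 17.7 CPM, the highest Hspa5 level, 679 CPM, and the lowest TMM factor, 0.856. The ratio does not depend on that factor, but it holds the Ddit3 counts on which the gene was selected.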

How the results depend on the processing

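Hspa5 in NAc lay so close to no difference that its sign turned without a filter (6.1e-05), without the P term (0.0044) and among P1 libraries (0.059). It ranged from −0.090 to 0.060 with single libraries left out and was called in none of these. With single libraries left out, Ddit3 in mPFC ranged from −0.013 to 0.074 and Hspa5 there from −0.18 to −0.046. The region difference ranged from −0.15 to −0.097 for Ddit3 and from 0.31 to 0.40 for Hspa5. Hspa5 kept its call in all 28 of these fits and Ddit3 in 22, where the Ddit3 values include the libraries that picked it. Both region calls ended among P2 libraries alone (−0.11 for Ddit3 and 0.24 for Hspa5); the fit then had fewer libraries. The Ddit3 effect in NAc, whose sign follows from the choice of the gene, was −0.39 with DESeq2 size factors, −0.38 with DESeq2 and −0.31 with voom. The number of genes called for the virus in NAc was 0, 9 with DESeq2 and 4 with voom, and ranged from 0 to 1 with single libraries left out (1 without H3.3WT replicate 12). In mPFC it was 0, and 8 with DESeq2. For the interaction it was 0, and 9 with voom. Without the 2 libraries farthest from the median Hspa5, r of Ddit3 with Hspa5 was 0.635 in NAc and turned to −0.348 in mPFC. The NAc value pools the viruses, so it holds the difference by which Ddit3 was picked. The cause of these changes was not tested. Single libraries left out aside, 55 of 61 tested values under other settings kept their direction and their side of the threshold, and 30 of 34 gene counts stayed within 1.5 times. A value of the same sign that was called in neither setting counts as kept, and so does a gene count that stayed at 0. The r in NAc that went from 0.0591 to 0.635 is among the values counted as kept, although it pools the viruses and is given here without a test.

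The replicate numbers 2, 3, 14 and 21 occur in both regions. Libraries that share one did not deviate together: the correlations were −0.108, −0.044, 0.0786 and 0.0542. Numbers 3 and 14 carried different viruses in the 2 regions, and number 14 also different P marks. Animals received virus in either region, so a shared number is not a label of a shared animal. The correlations compare different regions and cannot tell by themselves. No numbers are shared between the viruses within a region. With the replicate number as a block (limma voom, consensus correlation −0.0754), the region difference was −0.13 for Ddit3 and 0.37 for Hspa5, and 10390 genes were called; voom without the block or quality weights, added after seeing the data, gave −0.13, 0.37 and 10468 genes. Depth limits single Ddit3 values to about the counting error given above. It does not set the spread of Hspa5.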
